A study of Mus musculus with 10 samples.

Results

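A set of 10 transcription factors tied to B cell subsets and antibody isotype were followed in sorted mouse splenic plasma cells by RNA-seq, with 5 libraries from IgM cells and 5 from IgG1 cells. They were chosen by name (Tbx21, Rora, Ahr, Zeb2, Runx1, Runx2, Runx3, Bhlhe40, Bhlhe41 and Zbtb32), and all 10 were found among the 47719 gene identifiers of the files. All libraries came from donor B cells with 3 genetic elements: S1PR2-CreERT2, a Cre that tamoxifen switches on in cells using the S1pr2 gene, which germinal centre B cells express, the Ai14 reporter, which makes tdTomato once Cre has acted, and B1-8germ, a germline heavy chain that binds the hapten NP. Wild-type hosts received these congenically marked cells, were immunized with NP-CGG in alum on day 0 and were given tamoxifen on days 5 and 6. On day 10, donor tdTomato+ plasma cells were sorted from the spleen as IgM or IgG1 cells, so the groups shared genotype, treatment and time and differed in the isotype used for sorting. The labels give no age. They also do not say whether replicates were taken from different mice, and a p-value here covers only the spread among these libraries, which may be technical.

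These factors act at different points in the choice of B cell fate and isotype. T-bet, the product of Tbx21, directs switching to IgG2c and marks a subset of memory and age-associated B cells, in which Zeb2 also acts. RUNX proteins bind DNA with the partner CBFβ, and Runx2 and Runx3 act downstream of TGF-β in switching to IgA, while the nuclear receptor RORα has been tied to IgA memory cells. AHR is a ligand-activated factor that limits the formation of plasma cells, Bhlhe41 with Bhlhe40 maintains B-1a cells, and the repressor Zbtb32 acts in memory B cells and plasma cells.

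The deposited values were FPKM, fragments scaled to transcript length and to the mapped fragments of the library. Depth was estimated from the smallest steps between low values and was 26920000 to 31210000 fragments for IgM and 26440000 to 38450000 for IgG1 libraries. Between 15121 and 15800 genes were above 0 in an IgM library and between 13286 and 13961 in an IgG1 library. Of Ighm and Ighg1, the gene of the sorted isotype was the higher in every library. IgM libraries also held signal of other isotypes, with Ighg2b, Ighg2c and Ighg3, given below, higher there than in IgG1 libraries. IgM libraries held 85400 ± 3310 FPKM of Ighm, the μ chain gene, and IgG1 libraries 1170 ± 85.5 (mean ± SD, n = 5 each), while Ighg1 was at 15000 ± 4280 and 93800 ± 8150 FPKM. The plasma cell markers Sdc1, Prdm1, Xbp1, Irf4, Tnfrsf17 and Jchain were present in all libraries and summed to 39700 to 43900 FPKM in IgM and 23200 to 26700 FPKM in IgG1 libraries. Most of the sum was Jchain (38800 against 21100 FPKM), while Sdc1 was at 284 against 258 and Xbp1 at 2930 against 3190 FPKM. Prdm1 was at 53.5 against 29.2, Tnfrsf17 at 138 against 48.3 and Irf4 at 65.5 against 55.7 FPKM. Among these markers only Xbp1 had the higher mean in IgG1 libraries. Pax5, a B cell factor that plasma cells switch off, had means of 0.0704 and 0.06 FPKM.

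All 10 factors were low. In IgM libraries the mean level per transcript length fell from Bhlhe41 (3.75 ± 0.492 FPKM) through Runx3 (2.86 ± 1.26), Runx1 (2.22 ± 0.633), Ahr (2.14 ± 0.341), Zeb2 (1.13 ± 0.838), Runx2 (0.568 ± 0.284), Bhlhe40 (0.438 ± 0.22), Rora (0.165 ± 0.194) and Zbtb32 (0.108 ± 0.216) to Tbx21 (0.0986 ± 0.134; SD, n = 5). In IgG1 libraries Bhlhe41 was again first (3.01 ± 0.596 FPKM), followed by Runx1 (2.69 ± 1.16), Runx3 (1.75 ± 0.537), Ahr (1.53 ± 0.753) and Zbtb32 (0.348 ± 0.408), and the other 5 had means under 0.1 FPKM. The means of neighbours in these orders differed by less than the larger SD of the pair, except Ahr and Zeb2 and Bhlhe40 and Rora in IgM libraries and Ahr and Zbtb32 in IgG1 libraries.

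No factor passed the test between isotypes among those abundant enough to be tested. The test was limma on log2(FPKM + 1) over genes whose mean reached 1 FPKM, with Benjamini-Hochberg adjustment at 0.05. Each log2 difference is IgG1 less IgM, and the added 1 makes changes of low genes look smaller than they are. Of the 10 factors 4 were tested (Ahr, Runx1, Runx3 and Bhlhe41), and 0 were called, where 38.3% of all 9900 tested genes were (1791 or 18.1% higher and 2001 or 20.2% lower in IgG1 cells). Quantile normalization turned that split to 2182 higher and 1510 lower. None of the 4 had an unadjusted p under 0.05 either, against 46.8% of tested genes. Their median log2 difference was -0.3, beside -0.05 over all tested genes. The other 6 factors lay below the filter and were fitted only in an alternative with no filter over 24060 genes, in which 1 of them, Runx2, was lower in IgG1 cells, where 6.24% of genes were called lower and 5.47% higher.

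**Figure D1:**
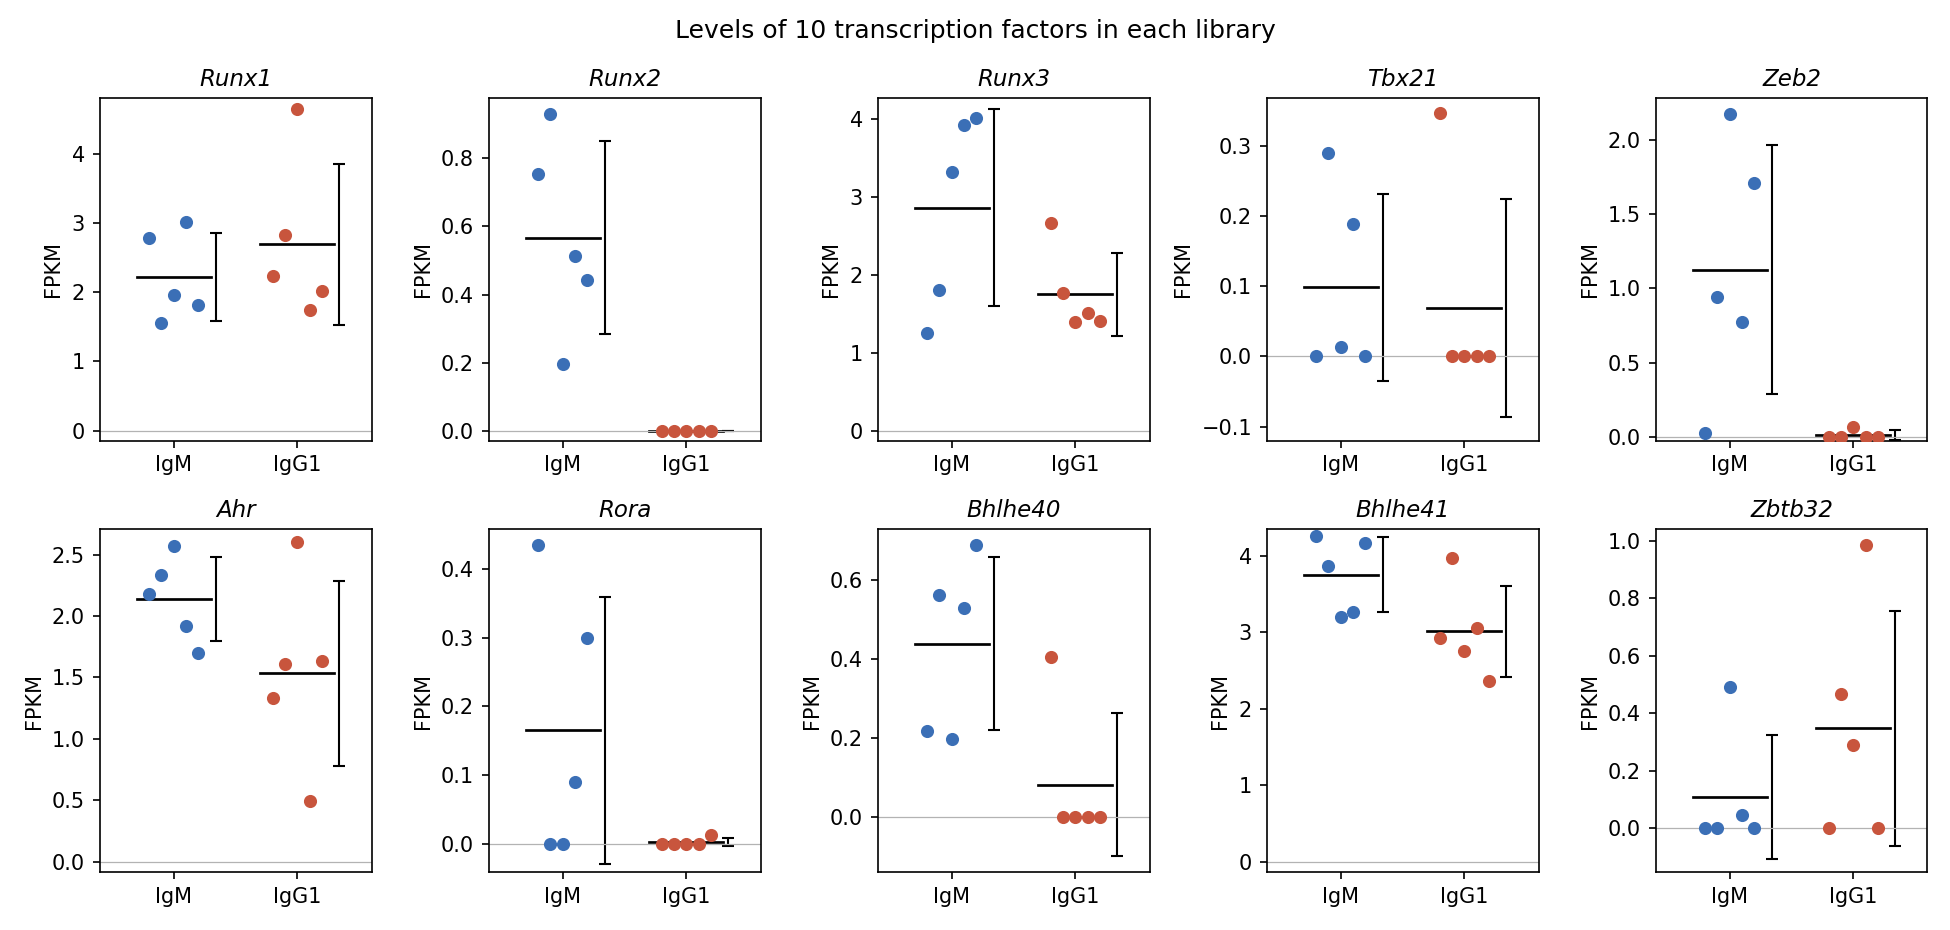
FPKM of each of the 10 factors (vertical axes, each with its own scale) in 5 IgM (blue) and 5 IgG1 (red) libraries, with points for libraries, horizontal lines for means and bars for ± SD. Runx2 is the 1 factor whose groups do not overlap, with every IgG1 library at 0.

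RUNX genes differed from each other in where they were found. Runx2 (chromosome 17, 44495987 to 44814797, minus strand, GRCm38), best known as the regulator of bone formation and shared with Runx3 in IgA switching, stood at 0.753, 0.931, 0.197, 0.514 and 0.443 FPKM in IgM libraries 1 to 5 and was listed at 0 in all 5 IgG1 libraries. Every IgM library therefore lay above every IgG1 library, which held for 3.31% of the 6426 genes with a mean of 0.05 to 1 FPKM, and 0.576% of them were above 0 in all IgM and in no IgG1 library. In the fit with no filter its log2 difference was -0.63 (SE 0.14, 95% interval -0.94 to -0.32, limma adjusted p = 0.0155), and 2.37% of genes in that range were called lower. If all fragments came from its longest transcript of 6463 bases, 1 fragment would be worth 0.00415 to 0.00604 FPKM, well under the lowest IgM value. An exact 0 in such a file can also be a failed estimate, and the counting is not stated to use strand, so reads of antisense partners cannot be told apart. The antisense gene Runx2os1 shares 519 exonic bases with Runx2 and was listed at 0.0628 and 0.478 FPKM in IgM libraries 2 and 3 and at 0 in the other 8.

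Runx3 (chromosome 4, 135120652 to 135177990, plus strand), which also controls cytotoxic T cell genes, stood at 1.26, 1.80, 3.32, 3.92 and 4.02 FPKM in IgM and at 2.67, 1.77, 1.39, 1.51 and 1.41 FPKM in IgG1 libraries. The 3 highest values were IgM libraries, but IgM replicate 1 was the lowest of all 10 and IgM replicate 2 fell inside the IgG1 range. The log2 difference was -0.44 (SE 0.25, 95% interval -0.97 to 0.09, limma adjusted p = 0.183). Runx1 (chromosome 16, 92601466 to 92826149, minus strand), needed for blood stem cells and early B cells, stood at 2.78, 1.55, 1.96, 3.01 and 1.82 FPKM in IgM and at 2.24, 2.82, 4.65, 1.74 and 2.02 FPKM in IgG1 libraries. The groups overlapped over nearly their whole range apart from IgG1 replicate 3. Its log2 difference was 0.17 (95% interval -0.32 to 0.66, adjusted p = 0.597), and without IgG1 replicate 3 it was 0.00 (adjusted p = 0.994).

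Summed over the 3 genes, RUNX levels were 5.65 ± 1.25 FPKM in IgM and 4.44 ± 1.14 FPKM in IgG1 libraries (SD, n = 5 each). Runx1 made up 39.9% ± 10.9 of that sum in IgM and 59.3% ± 11.6 in IgG1 libraries, Runx3 49.1% ± 15.3 and 40.7% ± 11.6, and Runx2 11% ± 7.49 in IgM libraries. The shares of Runx1 and Runx3 overlapped between the groups. The common partner of all RUNX proteins, Cbfb, was far more abundant (38.3 ± 2.88 FPKM for IgM, 32.4 ± 5.04 for IgG1, log2 difference -0.25, adjusted p = 0.0867).

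**Figure D2:**
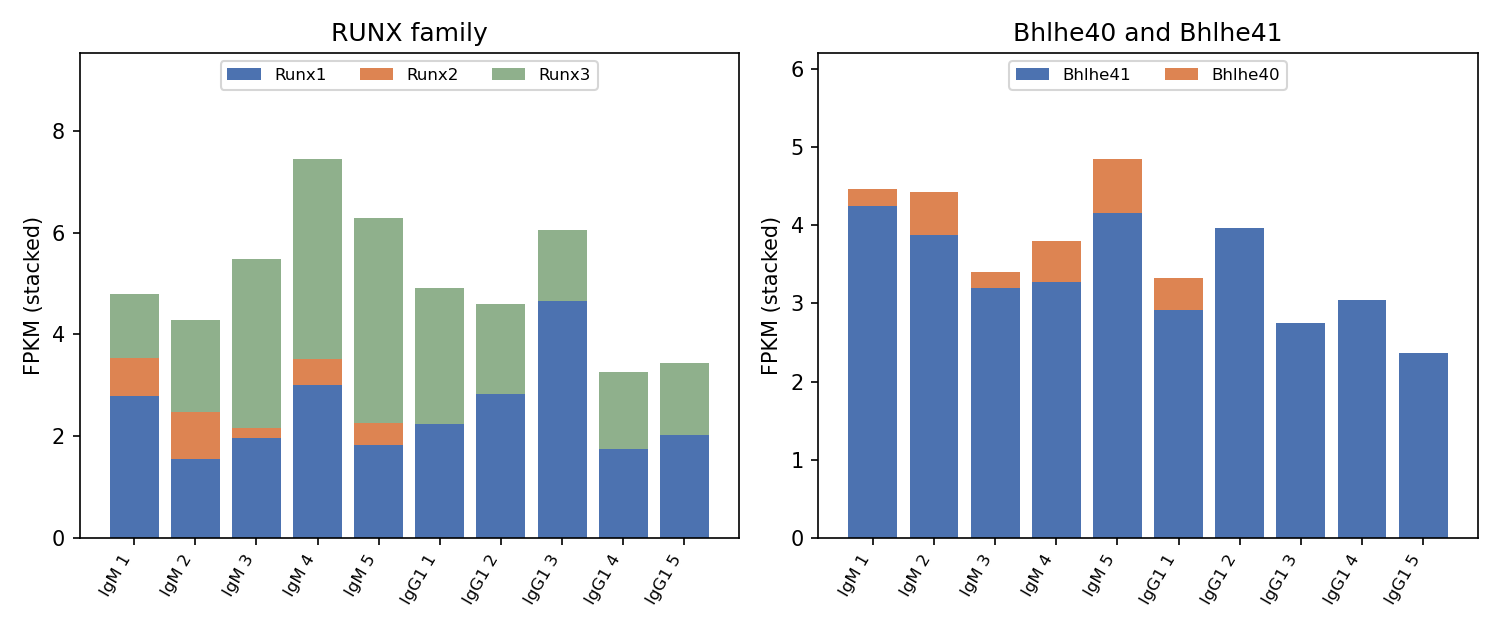
Stacked FPKM (vertical axes from 0) of Runx1, Runx2 and Runx3 (left) and of Bhlhe41 and Bhlhe40 (right) in each library. Runx2 appears in the IgM bars only, and Bhlhe40 in the 5 IgM bars and that of IgG1 replicate 1.

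The RUNX genes are known to start from a distal promoter and, further in, a proximal one, and the FPKM of a gene does not separate them. RefSeq promoter windows (GRCm38.p6, 250 bases before to 50 after an annotated start) were held for 8 of the 10 factors, in 14 windows. The most upstream windows of Runx1, Runx2 and Runx3 shared 1 run of 18 bases, shown in capitals with 6 bases on each side because it is the longest sequence that the 3 windows have in common.
Runx1 (chr16:92826025-92826054, minus strand): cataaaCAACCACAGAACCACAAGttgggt
Runx2 (chr17:44814583-44814612, minus strand): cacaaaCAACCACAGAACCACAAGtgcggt
Runx3 (chr4:135120503-135120532, plus strand): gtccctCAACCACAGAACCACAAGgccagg
Of 32851 windows, 4 held this run, those of the 3 RUNX genes and that of Gm16225, which lies on the other strand over the Runx3 window. Counted from the annotated start, the run lies at 27 to 44 in Runx1, at 22 to 39 in Runx2 and at -136 to -119 in Runx3. It contains the RUNX recognition letters TGTGGT 2 times on the opposite strand, and 1.81% of all windows held these letters at least 2 times on either strand (16.8% at least once). Runx2 held a further match at -80 to -75, in capitals in the 250 bases before its start, printed because it is the factor whose groups did not overlap.
Runx2 (chr17:44814628-44814877, minus strand): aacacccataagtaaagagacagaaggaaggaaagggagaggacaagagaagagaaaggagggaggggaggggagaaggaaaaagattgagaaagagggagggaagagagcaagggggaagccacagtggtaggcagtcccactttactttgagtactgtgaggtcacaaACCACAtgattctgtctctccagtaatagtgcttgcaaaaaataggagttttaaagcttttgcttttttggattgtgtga
All 3 genes hold the run, and Runx2 alone was listed at 0 in IgG1 libraries. A link between the run and these levels was not tested. A match of letters says nothing of binding in these cells.

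Zeb2 (chromosome 2, 44983632 to 45117395, minus strand), a zinc finger repressor, stood at 0.0286, 0.941, 2.17, 0.771 and 1.71 FPKM in IgM libraries. In IgG1 libraries it was at 0.0697 FPKM in replicate 3 and listed at 0 in the other 4. IgM replicate 1 thus fell inside the IgG1 range, and the other 4 IgM libraries lay above it. With no filter the log2 difference was -0.97 (SE 0.28, 95% interval -1.59 to -0.35), and the limma adjusted p of 0.0508 did not pass. Without IgM replicate 1, an alternative chosen after the data were seen, it passed (log2 difference -1.2, adjusted p = 0.00456). The antisense gene Zeb2os, with 653 shared exonic bases, was listed at 0 in all 10 libraries.

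Tbx21 (chromosome 11, 97098071 to 97115331, minus strand) was near the limit of detection. It was at 0.29 FPKM in IgM replicate 2, 0.014 in replicate 3 and 0.189 in replicate 4 and listed at 0 in replicates 1 and 5. Among the IgG1 libraries it was at 0.347 FPKM in replicate 1 and listed at 0 in the other 4. Tbx21 has 1 annotated transcript, of 2488 bases, so its values convert to fragments with the estimated depths: 0, 19.0, 1.0, 12 and 0 in IgM and 21.0, 0, 0, 0 and 0 in IgG1 libraries. The highest value was thus in an IgG1 and the next in an IgM library, and the log2 difference with no filter was -0.04 (95% interval -0.28 to 0.20, adjusted p = 0.794). Fragments of amplified cDNA without molecular identifiers are not independent molecules.

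Of 10 genes tied to T-bet 7 were tested, with 1 higher and 1 lower in IgG1 cells and a median log2 difference of -0.16. Neither share exceeded that over all tested genes (18.1% higher and 20.2% lower), so the counts are no result about the list. Counts of the other lists are to be read beside the same 18.1% and 20.2%. In some of them the share was larger, such as 3 of 6 tested AHR pathway genes higher, and this was not tested. Cxcr3, a chemokine receptor that T-bet induces, was at 4.29, 3.55, 1.88, 6.24 and 4.74 FPKM in IgM and at 11.8, 10.9, 12.4, 7.39 and 7.77 FPKM in IgG1 libraries, with no overlap (log2 difference 1.14, SE 0.23, adjusted p = 0.000652). Among tested genes, 26.3% did not overlap. Tlr7, an RNA sensor, was lower (4.01 ± 3.00 against 1.53 ± 0.969 FPKM, adjusted p = 0.04), a call that ended under 13 of 19 alternatives, among them leaving out IgM replicate 1 (adjusted p = 0.115), 4 (0.062) or 5 (0.0738) and IgG1 replicate 1 (0.0968), 3 (0.0502), 4 (0.103) or 5 (0.0665). The integrin genes Itgax and Itgam, which mark age-associated B cells, were listed at 0 in all libraries and at 0.599 ± 0.158 against 1.47 ± 0.662 FPKM (adjusted p = 0.069). The constant region gene that T-bet targets, Ighg2c, was lower in IgG1 cells (1900 ± 568 against 147 ± 53.6 FPKM, log2 difference -3.73, adjusted p = 3.17e-05), though reads of related constant regions can be shared. Ighg2b (4880 ± 761 against 276 ± 74.1 FPKM, adjusted p = 7.22e-07) and Ighg3 (1620 ± 741 against 217 ± 25.6 FPKM, adjusted p = 0.000178) were lower too. Of the 8 constant region genes 1 was higher and 6 were lower, with a median log2 difference of -3.01, and isotype was what the cells were sorted on.

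Rora (chromosome 9, 68653786 to 69388246, plus strand) was at 0.435, 0, 0, 0.0903 and 0.3 FPKM in IgM libraries and at 0 in 4 IgG1 libraries and 0.0131 FPKM in replicate 5. The 3 IgM libraries with a signal lay above every IgG1 library, and the other 2 did not. The log2 difference with no filter was -0.2 (95% interval -0.42 to 0.02, adjusted p = 0.274). Its relative Rorb, also below the filter and not tested, had means of 0.18 ± 0.208 FPKM in IgM and 0.000872 ± 0.00195 FPKM in IgG1 libraries. Within the IgM group it ran from 0 in replicate 4 to 0.523 FPKM in replicate 5.

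Ahr (chromosome 12, 35497974 to 35535038, minus strand) was present in every library, at 2.18, 2.33, 2.57, 1.92 and 1.70 FPKM in IgM and at 1.33, 1.61, 2.60, 0.493 and 1.63 FPKM in IgG1 libraries. In 4 IgG1 libraries it lay below every IgM library and IgG1 replicate 3 was above them all. The log2 difference was -0.36 (SE 0.24, 95% interval -0.87 to 0.15, adjusted p = 0.254). Without the lowest library, IgG1 replicate 4, the difference was -0.18 (adjusted p = 0.552).

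Around AHR, both cytosolic HSP90 genes were higher in IgG1 cells and 1 target was lower. Of 11 pathway genes 6 were tested, with 3 higher and 1 lower in IgG1 cells and a median log2 difference of 0.23. Among all tested genes 18.1% were higher and 20.2% lower. Hsp90ab1 (170 ± 10.5 against 261 ± 10.5 FPKM, adjusted p = 1.22e-07) and Hsp90aa1 (46.6 ± 4.12 against 65.1 ± 2.79 FPKM, adjusted p = 0.000114) hold AHR, among many clients, in the cytosol. Tiparp, which AHR induces among other inputs and which restrains it, stood at 39.8, 33.4, 35.3, 29.2 and 31.2 FPKM in IgM and at 20.6, 21.7, 18.3, 14.1 and 26.3 FPKM in IgG1 libraries, with no overlap (log2 difference -0.73, SE 0.14, adjusted p = 0.000423). The classical targets Cyp1a1 and Ahrr were listed at 0 in all 10 libraries. Arnt, the partner with which AHR binds DNA, had means of 15.0 ± 2.25 and 11.5 ± 2.03 FPKM (log2 difference -0.35, adjusted p = 0.0635).

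Bhlhe41 (chromosome 6, 145858243 to 145865558, minus strand) was the most abundant of the 10. It stood at 4.25, 3.87, 3.20, 3.27 and 4.16 FPKM in IgM and at 2.92, 3.97, 2.75, 3.05 and 2.36 FPKM in IgG1 libraries. In 4 IgG1 libraries it lay below every IgM library, and IgG1 replicate 2 was among the higher IgM values. The log2 difference was -0.25 (SE 0.18, 95% interval -0.64 to 0.14, adjusted p = 0.301). The gene model Gm43909 lies on the opposite strand, shares 1280 exonic bases with it and was listed at 0.302 to 2.02 FPKM, so part of either value cannot be assigned.

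Bhlhe40 (chromosome 6, 108660629 to 108666925, plus strand), the close relative of Bhlhe41, was at 0.216, 0.56, 0.197, 0.529 and 0.688 FPKM in IgM libraries, at 0.404 FPKM in IgG1 replicate 1 and listed at 0 in the other 4 IgG1 libraries. All IgM libraries held a signal, and 1 IgG1 library reached their range. With no filter the log2 difference was -0.41 (95% interval -0.76 to -0.07), which did not pass (adjusted p = 0.139). Bhlhe40 made up 10.3% ± 4.58 of the summed FPKM of the pair in IgM and 2.43% ± 5.44 in IgG1 libraries.

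Both proteins repress through the E-box CACGTG, and Bhlhe41 is printed because it was the highest of the 10 and its window holds this E-box, in capitals, at positions -153 to -148 from its start.
Bhlhe41 (chr6:145865421-145865670, minus strand): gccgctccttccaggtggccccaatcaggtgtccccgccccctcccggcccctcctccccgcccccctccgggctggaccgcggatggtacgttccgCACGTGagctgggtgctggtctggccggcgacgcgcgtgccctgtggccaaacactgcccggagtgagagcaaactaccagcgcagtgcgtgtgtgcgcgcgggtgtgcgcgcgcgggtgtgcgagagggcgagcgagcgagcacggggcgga
The letters, which read the same on both strands, were in 7.15% of all windows, and among the factors also in the distal window of Runx1.

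Bhlhe40, Bhlhe41 and ROR proteins feed back on the clock genes. Of 17 such genes 8 were tested, and 2 of them were lower and 0 higher in IgG1 cells, a share of lower calls near the 20.2% of all tested genes, with a median log2 difference of -0.39. Clock, a core activator of the circadian loop, had means of 3.46 ± 0.483 and 1.27 ± 0.442 FPKM (log2 difference -0.99, adjusted p = 0.000984). The repressor Per1 had means of 1.79 ± 0.396 and 0.587 ± 0.232 FPKM (log2 difference -0.81, adjusted p = 0.0094). The call of Per1 ended with quantile normalization (adjusted p = 0.0621). Arntl, the partner of Clock, was at 6.04 ± 2.31 against 4.34 ± 1.76 FPKM (adjusted p = 0.236).

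Zbtb32 (chromosome 7, 30589681 to 30598909, minus strand) was the only factor below the filter with the higher mean in IgG1 libraries. It was listed at 0 in IgM replicates 1, 2 and 5, at 0.492 FPKM in replicate 3 and at 0.0461 FPKM in replicate 4. In IgG1 libraries it was at 0.466, 0.288 and 0.985 FPKM in replicates 2, 3 and 4 and listed at 0 in replicates 1 and 5. With no filter the log2 difference was 0.25 (95% interval -0.22 to 0.73, adjusted p = 0.495). Of 10 related zinc finger genes 7 were tested, with 3 lower and 0 higher (20.2% and 18.1% among all tested genes). Their median log2 difference was -0.06. Zbtb20, which promotes plasma cell survival, was at 41.8, 46.6, 33.0, 43.5 and 51.7 FPKM in IgM and at 9.17, 12, 18.5, 16.8 and 11.9 FPKM in IgG1 libraries (log2 difference -1.62, SE 0.16, adjusted p = 6.15e-07), and Zbtb38, which binds methylated DNA, had means of 29.6 ± 1.67 and 14.9 ± 2.61 FPKM (log2 difference -0.96, adjusted p = 8.21e-06). Zbtb24 was at 8.29 ± 1.14 against 5.59 ± 1.65 FPKM (adjusted p = 0.0328), a call that ended under 8 alternatives (adjusted p = 0.0634 to 0.147), 6 of which left out 1 library (IgM replicate 1, 2 or 5, or IgG1 replicate 2, 3 or 4).

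**Figure D3:**
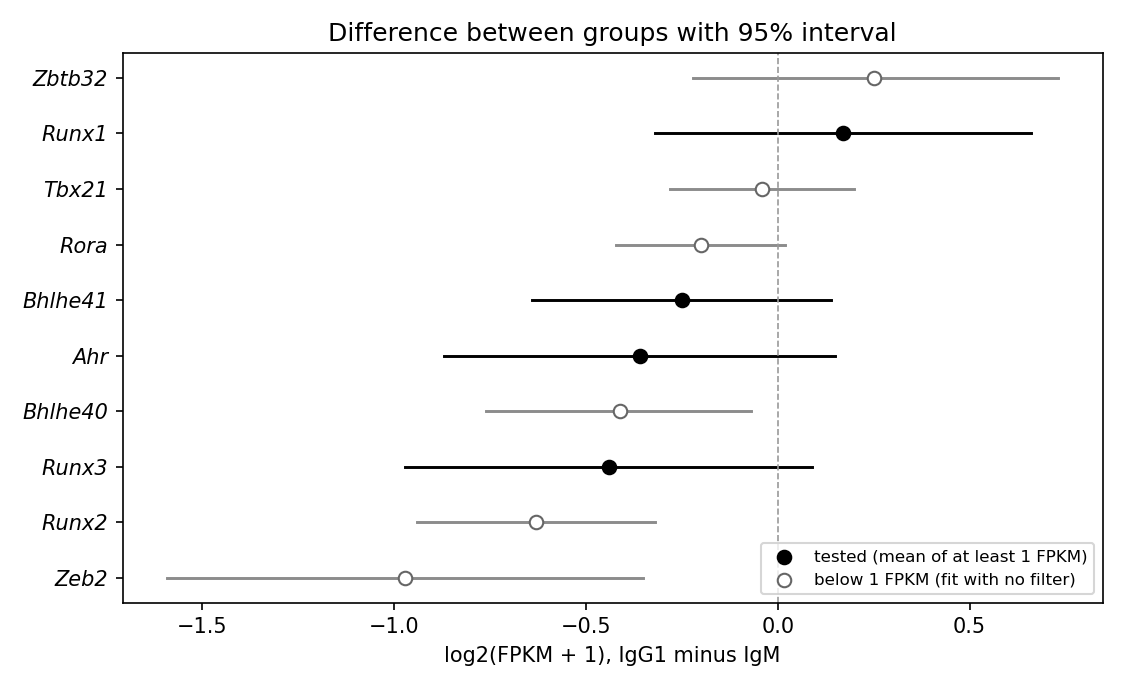
Log2 difference of FPKM + 1, IgG1 minus IgM (horizontal axis), with its 95% interval for each factor, filled for those tested and open for those fitted with no filter. The 4 tested factors have intervals that include 0, and among the others those of Runx2, Zeb2 and Bhlhe40 lie below 0 before adjustment over all genes.

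Detection of the 6 low factors leaned to IgM libraries, as did that of genes in their range. Runx2, Zeb2 and Bhlhe40 were above 0 in all 5 IgM libraries and in at most 1 IgG1 library, a pattern that 2.24% of genes with a mean of 0.05 to 1 FPKM showed, against 0.187% for the reverse. This way of counting was chosen after the values were seen. In the same range 53.2% of genes were above 0 in more IgM than IgG1 libraries and 18.6% in more IgG1 than IgM libraries, and among the 6 factors the numbers were 5 and 1. This direction is thus not particular to the factors, and whether they lean more was not tested. With no filter, 3 of the 10 factors had an unadjusted p under 0.05 and 1 an adjusted one. In bulk samples, fewer cells with a transcript and less of it per cell cannot be told apart.

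Several of these factors are also expressed by T cells, natural killer cells and myeloid cells, so markers of those cells were read in the same libraries. The 10 T cell markers summed to 41.8 to 58.5 FPKM in IgM and 31.5 to 37.9 FPKM in IgG1 libraries, most of it Cd28, which plasma cells also express. Trac, the T cell receptor α constant gene, stood at 1.38, 2.44, 3.91, 2.65 and 1.48 FPKM in IgM and at 0.696, 0.185, 0, 0.126 and 0 FPKM in IgG1 libraries (log2 difference -1.47, adjusted p = 0.000341). Cd3d, Cd8a, Trbc1 and Trbc2 were listed at 0 in all IgG1 libraries and reached 0.947, 0.114, 1.65 and 1.49 FPKM in IgM libraries. Cd3g reached 1.22 FPKM in IgM and 0.0372 FPKM in IgG1 libraries, and Cd3e did not exceed 0.0887 FPKM in any library. Cd4 went the other way, with means of 0.28 and 1.87 FPKM and no overlap (log2 difference 1.12, adjusted p = 0.00458). The 6 natural killer cell markers summed to 0.85 to 1.99 and 1.6 to 3.12 FPKM, with Ncr1, Gzma and Klre1 at 0 in all libraries. Prf1 was the highest of them in every library, with means of 1.24 and 1.99 FPKM (limma adjusted p = 0.131). Klrk1 reached 0.832 FPKM, in IgG1 replicate 5. The 8 macrophage and monocyte markers summed to 31.9 to 39.4 and 14.2 to 20.7 FPKM, most of it Cd68. C1qb had means of 2.14 FPKM in IgM and 1.99 in IgG1 libraries, and Lyz2 of 1.09 and 1.62. Those of C1qa were 0.476 and 0.987, of Csf1r 0.231 and 0.582 and of Adgre1 0.188 and 0.168 FPKM. Cd14 and Fcgr1 did not exceed 0.284 and 0.0109 FPKM. Neutrophil, dendritic cell, erythroid, megakaryocyte and stromal markers each summed to at most 7.75 FPKM in any library. The part of T cell or myeloid transcripts in the values of Runx2, Zeb2, Tbx21, Rora, Runx3 and Bhlhe40 was not tested.

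Among 9 RUNX partners 7 were tested, 2 of them lower and 0 higher in IgG1 cells (20.2% and 18.1% among all tested genes). Their median log2 difference was -0.18. Both that passed are Groucho family corepressors: Tle4 (11.2 ± 1.4 against 6.38 ± 1.67 FPKM, log2 difference -0.75, adjusted p = 0.00309) and Tle2 (2.76 ± 0.921 against 0.674 ± 0.819 FPKM, log2 difference -1.25, adjusted p = 0.00325). Of 8 genes for ZEB partners and the E proteins and Id proteins around them, 6 were tested, with 2 higher and 1 lower and a median log2 difference of 0.15. The E protein genes Tcf3 (44.5 ± 5.79 against 56.7 ± 3.54 FPKM, log2 difference 0.35, adjusted p = 0.00587) and Tcf4 (64.3 ± 2.90 against 52.3 ± 5.83 FPKM, log2 difference -0.3, adjusted p = 0.00871) went opposite ways. The corepressor Ctbp1 (88.5 ± 6.19 against 108 ± 14.5 FPKM, adjusted p = 0.022) was higher, a call that ended under 7 alternatives, among them leaving out IgM replicate 3 (adjusted p = 0.0608) or IgG1 replicate 1 (0.0605), 3 (0.0628) or 4 (0.0533). Zeb1, the relative of Zeb2, was at 2.75 ± 1.08 against 1.97 ± 0.634 FPKM (adjusted p = 0.319).

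Among 15 regulators of class switching 12 were tested, with 1 higher and 2 lower in IgG1 cells and a median log2 difference of -0.18. Neither share exceeded the 18.1% and 20.2% of all tested genes, so the counts are no result about this list. The TGF-β receptor genes Tgfbr2 (7.08 ± 1.74 against 3.43 ± 0.628 FPKM, log2 difference -0.85, adjusted p = 0.00177) and Tgfbr1 (15.2 ± 2.27 against 10.1 ± 2.66 FPKM, log2 difference -0.56, adjusted p = 0.0138), which lie upstream of Runx2 and Runx3, were lower, and the call of Tgfbr1 ended with no filter (adjusted p = 0.0817). The TGF-β signal transducer Smad3 was higher (4.09 ± 0.336 against 6.47 ± 1.95 FPKM, adjusted p = 0.0389), a call that ended under 8 alternatives, among them leaving out IgM replicate 1, 3, 4 or 5 or IgG1 replicate 2 or 3 (adjusted p = 0.051 to 0.112).

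Of 14 genes that mark B-1, marginal zone or memory B cells, 7 were tested, with 1 higher and 3 lower in IgG1 cells (18.1% and 20.2% among all tested genes). Their median log2 difference was -0.75. Those lower were Ctla4 (12.2 ± 2.87 against 4.25 ± 1.76 FPKM, log2 difference -1.39, adjusted p = 0.000372), the complement receptor Cr2 (1.83 ± 0.543 against 0.436 ± 0.466 FPKM, log2 difference -1.02, adjusted p = 0.00736) and the lipid-presenting Cd1d1 (13.6 ± 3.00 against 7.56 ± 1.92 FPKM, log2 difference -0.78, adjusted p = 0.00179). The tetraspanin Cd9 was higher (28.2 ± 6.89 against 40.0 ± 7.99 FPKM, adjusted p = 0.0202), a call that ended under 6 alternatives, among them leaving out IgM replicate 2 or 3 or IgG1 replicate 4 or 5 (adjusted p = 0.054 to 0.0553). Cd5, which marks B-1a cells, was listed at 0 in all libraries. Spn, another gene of this list, was present in each (17.1 ± 4.83 against 21.9 ± 2.08 FPKM, limma adjusted p = 0.0711). Bhlhe41, a factor of B-1a cells, was also present in each, and a link to these markers was not tested.

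**Figure D4:**
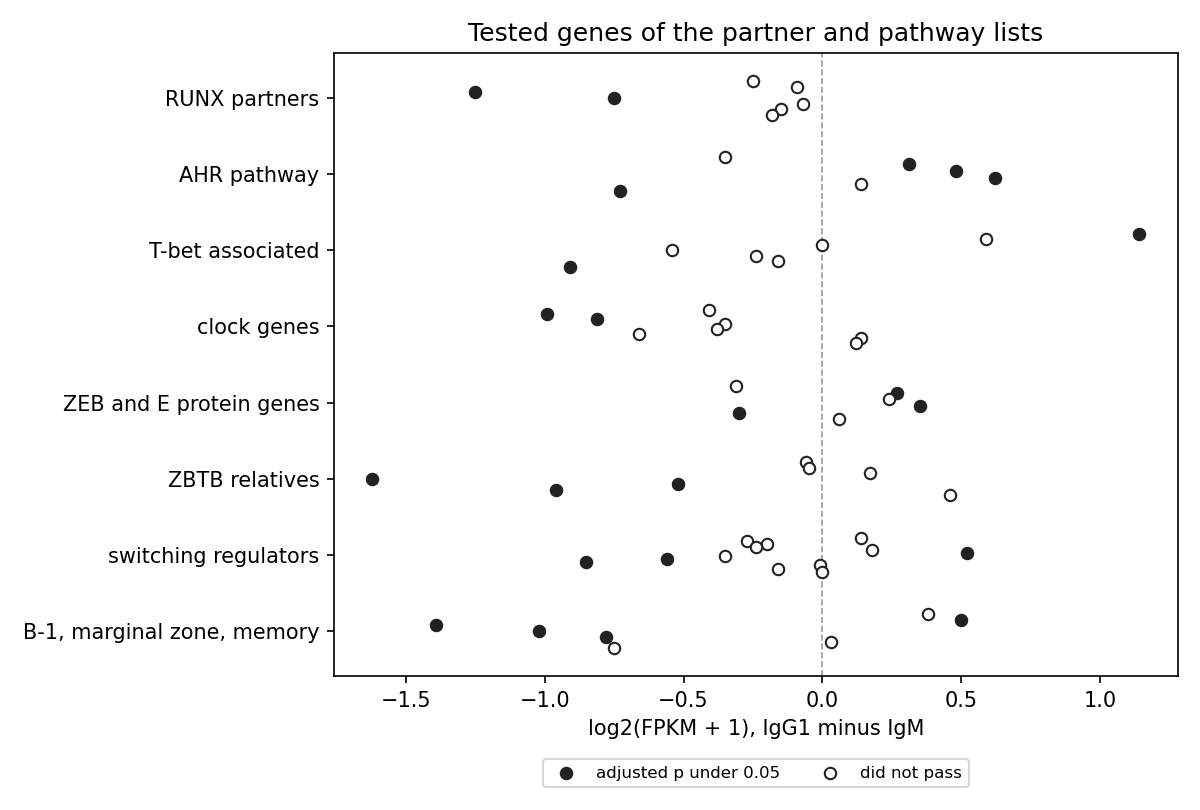
Log2 difference of FPKM + 1, IgG1 minus IgM (horizontal axis), for each tested gene of 8 partner and pathway lists (rows), filled where the adjusted p was under 0.05. Cxcr3 at 1.14 and Zbtb20 at -1.62 are the ends of the range.

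Profiles most like those of the factors were sought over the 10 libraries on log2(FPKM + 1), as a description. They share libraries, and with this many genes high values arise easily. For Runx3, the tested factor with the smallest p among those lower in IgG1 cells, the highest Pearson r were with Map3k5 (0.92), Ppp2r2a (0.894) and Wdr26 (0.874), and with group means removed with Map3k5 (0.927), Lipe (0.911) and Gm4540 (0.905). For Runx1, the only tested factor with a higher mean in IgG1 cells, they were with Tcf12 (0.887), Hmgb1-ps5 (0.885) and 2610001J05Rik (0.849), and with group means removed with Rtn3 (0.934), Gm28043 (0.913) and Vti1a (0.902).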

How the data were processed

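Total RNA from sorted cells was made into libraries with the kit SMART-Seq mRNA HT LP, per the labels' protocols. Per the submitters' processing notes, HISAT2 2.1.0, Cufflinks 2.2.1 and Cuffdiff were used with GRCm38. The sources used here give neither their settings nor the gene annotation. The authors deposited 1 table of FPKM per library, per the file headers. Because FPKM is relative to the library's total, abundant transcripts lower the rest.

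The 47719 identifiers were joined, and 47305 matched GENCODE M21 (GRCm38). Depth was estimated from the FPKM that 1 fragment gives in genes with 1 transcript, assuming fragments of 200 bases. With 100 or 400 bases assumed, the deepest library, IgG1 replicate 2, came to 36530000 or 42510000 fragments in place of 38450000. Genes whose mean reached 1 FPKM were tested with limma 3.58.1 in R 4.3.3 on log2(FPKM + 1), with trend and robust settings and group as the only term. The procedure was tested on data simulated for IgG1 against IgM with 9900 genes and recovered 36% of genes changed 1.5-fold, 84% at 2-fold and 98% at 3-fold and at 4-fold (folds of FPKM + 1). It made 7 false calls. Far fewer genes were changed in the simulation than were called in the data, and recovery was averaged over genes of all levels. The rates therefore do not give the power for the low factors. Same-numbered libraries of the groups did not deviate together (r from -0.036 to 0.097 over 5 pairs), so the replicate numbers were not taken as pairs. Tables used pandas 2.3.3, numpy 2.4.6 and scipy 1.17.1 and plots matplotlib 3.10.9 in Python 3.11.15.

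The 10 factors and all lists were chosen with earlier results of these data known, so no set test was run. All 10 factors are named, and from each list up to 5 genes by smallest p among those that passed, except that some list genes are counted but not reported here by name. Other list genes (Cbfb, Itgax, Itgam, Rorb, Cyp1a1, Ahrr, Arnt, Arntl, Zeb1, Cd5, Spn and the cell type markers) were picked for their known role after values were seen. Alternatives were other pseudocounts, filters, scalings and eBayes settings, array weights, a replicate block and leaving out each library. Combinations with no filter were added after the data were seen.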

Additional observations from a re-analysis of the deposited data

Results flagged for a closer look

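In 75 groups of 5 libraries, over 38 named genes with the 10 factors among them, 10 had a highest or lowest library set apart from the other 4. The rule was Dixon's criterion, which chance meets in about 1 of 20 groups if values are normally distributed. A group with 1 library above 0 and 4 at 0 always meets it, so that rate does not hold for such groups. Of the 10 flagged, 5 concern the factors. Tbx21 in IgG1 replicate 1 (0.347 FPKM), Bhlhe40 in the same library (0.404 FPKM), Zeb2 in IgG1 replicate 3 (0.0697 FPKM) and Rora in IgG1 replicate 5 (0.0131 FPKM) were each the only value above 0 in their group. Zbtb32 in IgM replicate 3 (0.492 FPKM) stood above 3 libraries at 0 and 1 at 0.0461 FPKM. The others were Tlr7 (9.2 FPKM) and Ighg2c (2880 FPKM), both high in IgM replicate 1, and in IgM replicate 5 the high values of Per1 (2.49 FPKM) and Cd1d1 (19.0 FPKM) and the low value of Tgfbr1 (11.3 FPKM).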

How the results depend on the processing

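Of the 38 named genes followed through the alternatives, the 10 factors included, none that passed in any fit changed sign. Tbx21, which never passed, ran from -0.3 to 0.02 (without IgM replicate 2), and Runx1 from 0.00 to 0.39. The median over all genes went from -0.05 to 0.06 with quantile normalization and was at lowest -0.07. Ahr, Runx1, Runx3 and Bhlhe41 did not pass under any of 19 alternatives each (lowest adjusted p 0.122, 0.207, 0.0579 and 0.121). They have no value with a mean of at least 5 FPKM. With no filter 1 factor was called lower in IgG1 cells, Runx2 at -0.63 (adjusted p = 0.0155). Runx2 passed in 17 of 18 fits with no filter: at -2.62 with a pseudocount of 0.1, -0.15 with 5, -0.61 with median-ratio scaling, -0.64 with a common total without immunoglobulin genes, -0.63 with eBayes without trend or robust or with array weights, and -0.72 to -0.55 leaving out each library (-0.58 and -0.65 without IgM replicates 1 and 5; adjusted p at most 0.0417). It did not pass with the replicate block (adjusted p = 0.0748). Zeb2 passed with a pseudocount of 0.1 (-2.96), a common total without immunoglobulin genes, eBayes without trend or robust and array weights (each -0.97), and without IgM replicate 1 (range over left-out libraries -1.2 to -0.8). Tbx21, Rora, Bhlhe40 and Zbtb32 passed in none of 18. Genes called higher and lower ran from 1316 to 2182 and from 1502 to 2121, with 2182 higher and 1510 lower under quantile normalization, and with the replicate block were 1749 and 1952. Correlations of same-numbered libraries were small (-0.036 to 0.097), so the numbers were not taken as pairs, although 3 of 5 IgM libraries correlated best with the IgG1 library of their number. Counts in lists moved by small numbers. RUNX partners lower came to 1 with a mean of at least 5 FPKM. T-bet associated genes lower came to 0 with a pseudocount of 5, no filter, a mean filter of 5 FPKM, eBayes without trend or robust, array weights and the replicate block (0 to 2 leaving out each library), and higher to 2 with quantile normalization and eBayes without trend or robust (1 to 2). Clock genes lower came to 0 with a mean of at least 5 FPKM and 1 with quantile normalization (2 to 3 leaving out each library), ZEB partners higher to 1 with no filter, quantile normalization and eBayes without trend or robust (1 to 2), and switching regulators to 0 higher and 1 lower with no filter and 0 higher with a common total without immunoglobulin genes (0 to 1). B-1, marginal zone and memory genes higher came to 0 with no filter and eBayes without trend or robust and 2 with quantile normalization (0 to 1), and AHR pathway genes lower to 1 to 2 leaving out each library. The causes were not tested. An IgG1 value of 0 does not show that a transcript is absent.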
